A study of Mus musculus with 32 samples.

Results

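Sarcolipin, the SERCA pumps and the calcium-storing and calcium-buffering proteins of muscle form a set of 10 genes out of the 33397 genes measured. The set was chosen by name with earlier results of these data known, and Sln was selected on its large rise after denervation, so the differences of Sln between time points are given as a description without a test. The members are Sln (sarcolipin) and Pln (phospholamban), the pumps Atp2a1, Atp2a2 and Atp2a3, the reticulum proteins Casq1, Casq2, Srl and Hrc, and the cytosolic buffer Pvalb. RNA was sequenced from the gastrocnemius (GAS), a mostly fast calf muscle, of male C57BL/6J mice (C57BL/6 in the labels) in 8 groups of 4 samples, taken on days 0, 1, 3, 5, 7, 14, 21 and 28. The labels list sciatic nerve transection for all samples, 0 d included, and the denervated muscle lost its motor supply when a piece of the left sciatic nerve was removed. In the table of values the 4 columns headed C, the only ones that name no day, were taken as the 0 d group, and since the methods describe sham mice that underwent the surgery without the transection, this group is used here as the control. The series holds no sham group of a later day, so effects of the surgery and of the time since it were not tested apart from denervation. The labels give no age, while the methods state an age range in weeks for the mice of the study. The table does not tie a value column to an individual animal, so p-values rest on the spread between libraries of the same time point, pooled over the 8 groups.

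In a muscle fibre, calcium leaves the sarcoplasmic reticulum (SR) through the ryanodine receptor, triggers contraction and is returned by the SERCA pumps. Atp2a1 encodes the fast-fibre pump SERCA1, Atp2a2 the slow-fibre and cardiac pump SERCA2 and Atp2a3 the pump SERCA3 of many non-muscle cells. Sarcolipin and phospholamban are small membrane peptides that bind SERCA and lower its pumping, and sarcolipin is known for letting the pump use ATP with less calcium moved. Inside the SR, calsequestrin (Casq1 in fast fibres, Casq2 in slow fibres and heart) stores calcium next to the release channel, and parvalbumin (Pvalb) binds calcium in the cytosol of fast fibres and speeds their relaxation.

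Values are FPKM, the fragments of a gene divided by its exon length and by the library total, so levels of different genes can be set side by side. The libraries held 14199902 to 17561584 fragments, and fragment counts recovered from the values were whole for 99.26% to 99.34% of values under 200. Mitochondrial genes took 14.5% to 18.2% of the fragments at 0 d and 6.70% to 17.1% from 1 to 28 d. Over the 11943 genes averaging an FPKM of 1 or more, the median log2 change lay between 0.12 and 0.32 against 0 d as deposited and between -0.04 and 0.015 after median-ratio scaling, and the share of called genes that were higher was 68.7% to 79.5% as deposited and 43.7% to 46.8% after this scaling. Falls of the members given below are therefore larger, and rises smaller, relative to the median gene. The library of sample a at 3 d stood apart from the others of its time point, with a median-ratio factor of 0.851 against 0.987 to 1.08. The extraction text of the labels speaks of retinas, while 5 photoreceptor genes summed to an FPKM of only 0.0772 to 0.504 in any library and 5 skeletal muscle genes to 12500 to 25050. In bulk RNA, fewer cells of a type and less RNA per cell cannot be told apart.

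Sln was among the lowest members at 0 d and among the highest at the end. It is a single gene on chromosome 9 (ENSMUSG00000042045, 53850164 to 53854560, + strand, GRCm38). The coding sequences of Sln and of its relative Pln are shown because both regulators bind the same pumps, and the start and stop codons are in capitals (GRCm38, GENCODE release M21).
Sln open reading frame (chr9:53853473-53853568, + strand): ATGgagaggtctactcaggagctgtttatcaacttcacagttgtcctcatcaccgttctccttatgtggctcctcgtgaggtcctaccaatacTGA
Pln open reading frame (chr10:53343864-53344022, + strand): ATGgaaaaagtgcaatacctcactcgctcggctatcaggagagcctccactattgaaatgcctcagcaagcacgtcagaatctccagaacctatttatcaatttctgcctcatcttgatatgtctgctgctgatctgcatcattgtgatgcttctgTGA
The Sln frame of 96 bases holds 31 codons before the stop and the Pln frame of 159 bases holds 52.

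The 4 libraries of 0 d had Sln FPKM values of 5.81, 3.81, 2.04 and 2.15, and those of 1 d had 2.19, 1.58, 2.26 and 1.42. The 3 d libraries read 21.1, 27.3, 13.9 and 21.2, and the 5 d libraries 27.3, 31.2, 26.9 and 30.2. The groups of 0 and 1 d overlapped, as did those of 3 and 5 d, and every library from 3 d on lay above every library of 0 and 1 d. On day 7 Sln stood at 96.3, 111, 100 and 86.7, the 14 d libraries had 1253, 936, 538 and 429, and those of 21 d had 809, 868, 874 and 763. The 28 d libraries were close together at 1169, 1237, 1169 and 1130. The 14 d libraries spread over the widest range and reached from below all 21 d libraries to above all 28 d libraries, while the 21 and 28 d groups did not overlap.

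The mean Sln FPKM was 3.45 ± 1.77 (SD, n = 4) for 0 d and 1.86 ± 0.42 for 1 d. The next means were 20.9 ± 5.5 on day 3, 28.9 ± 2.1 on day 5 and 98.6 ± 9.98 on day 7. Late means were 789 ± 379 on day 14, 829 ± 52.5 on day 21 and 1176 ± 44.6 on day 28. The 28 d mean was 341-fold the 0 d mean, and on the log2(FPKM + 1) scale the difference from 0 d was 2.34 for 3 d and 4.56 for 7 d, and on days 14, 21 and 28 it was 7.42, 7.62 and 8.13. After median-ratio scaling the 3 late differences were 7.09, 7.38 and 7.82. The late steps, given without a test for the same reason, were 0.20 from 14 to 21 d and 0.51 from 21 to 28 d. All 21 d libraries lay within the range of the 14 d libraries (429 to 1253), so the step of 0.20 is small beside that spread. At 0 d Sln rested on 41 to 118 fragments per library, and at 28 d on 25466 to 27397.

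**Figure D1:**
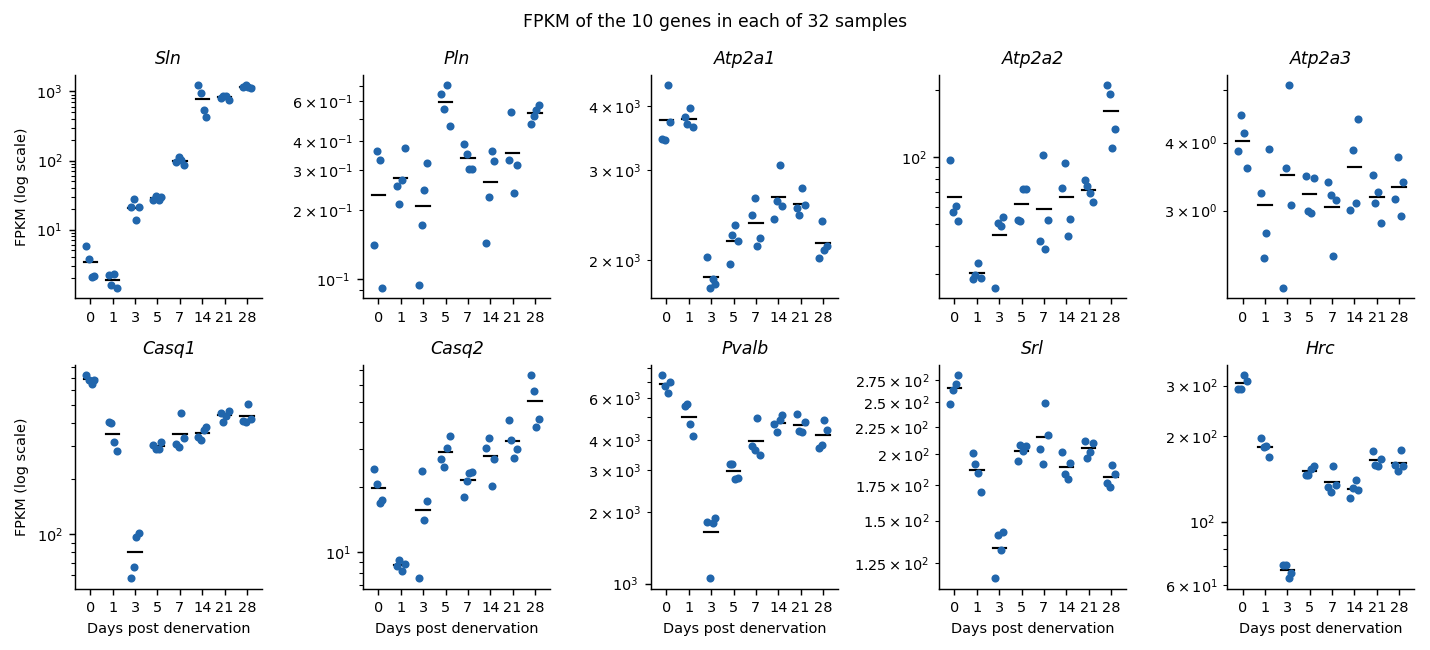
FPKM of the 10 genes (log scale, a separate range for each gene) in each of the 32 samples by days post denervation, with 4 points per time point and a bar at their mean. Sln climbs from 1.42 to 5.81 at 0 and 1 d to 1130 to 1237 at 28 d, while Casq1, Pvalb, Srl and Hrc are lowest at 3 d.

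Pln, the SERCA regulator of heart and slow muscle, was covered by few fragments throughout. Its FPKM was 0.14, 0.36, 0.33 and 0.091 at 0 d, 0.65, 0.56, 0.71 and 0.47 at 5 d, and 0.47, 0.52, 0.55 and 0.58 at 28 d. The 5 and 28 d libraries all lay above the 0 d libraries, but each value rested on few fragments, 4 to 15 per library at 0 d and 22 to 34 at 5 d. The log2(FPKM + 1) difference from 0 d was 0.38 at 5 d (standard error 0.08, adjusted p = 0.000147) and 0.32 at 28 d (standard error 0.08, adjusted p = 0.000893), below the 1.5-fold threshold on a scale that understates low genes. With a pseudocount of 0.1 the same differences were 1.15 and 1.02, past that threshold. Of the 2759 exonic bases of Pln (chromosome 10, 53337667 to 53345987, + strand), 1644 overlap Gm47644 and 141 overlap Cep85l, both on the opposite strand, and whether the counting used the strand is not given in the sources used here.

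The fast pump Atp2a1 was the dominant SERCA throughout and fell at 3 d. Its FPKM was 3444, 3438, 4404 and 3726 at 0 d and 3808, 3687, 3961 and 3647 at 1 d. At 3 d it was 2032, 1765, 1843 and 1797, below every library of 0 and 1 d, a log2 fold change of -1.01 against 0 d (standard error 0.09, limma adjusted p = 5.16e-10). It was also called lower at 5 d (-0.78), 7 d (-0.67) and 28 d (-0.79), whereas at 14 and 21 d the differences of -0.49 and -0.53 were under 1.5-fold as deposited and past it after median-ratio scaling (-0.89 and -0.84) and without mitochondrial genes (-0.59 and -0.60). At 28 d the 4 libraries read 2017, 2387, 2096 and 2136, again below all 0 d libraries. Quantile normalization ended the 4 calls, leaving differences of -0.29, -0.01, -0.05 and -0.45 on days 3, 5, 7 and 28, and rescaling to TPM ended that of 7 d (-0.47). Exons of Atp2a1 (chromosome 7, 126445858 to 126463108, - strand) overlap those of Rabep2 on the opposite strand over 763 bases.

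The slow pump Atp2a2 moved in the other direction at the end of the time course. Its FPKM was 96.9, 56.9, 60.1 and 51.5 at 0 d and 28.5, 29.7, 33.5 and 28.8 at 1 d, so all 1 d libraries lay below all 0 d libraries. The fall at 1 d was -1.07 on the log2 scale (standard error 0.27, adjusted p = 0.00255), and from 3 to 21 d the differences from 0 d lay between -0.56 and 0.14 without passing the test as deposited, although -0.83 at 3 d and -0.62 at 7 d did after median-ratio scaling (adjusted p = 0.0070 and 0.0470), as did -0.81 at 3 d with quantile normalization (adjusted p = 0.0103). At 28 d the libraries stood at 211, 192, 110 and 133, all above the 0 d libraries, a log2 fold change of 1.27 (standard error 0.27, adjusted p = 0.00026). The step from 21 to 28 d was 1.12 (standard error 0.27) with an adjusted p of 0.0536, and without library c of 28 d it was 1.29 with an adjusted p of 0.0266. It also passed with all libraries after median-ratio scaling (1.06, adjusted p = 0.0490), with quantile normalization (1.09, adjusted p = 0.0473) and without mitochondrial genes (1.14, adjusted p = 0.0451). At 3 d, library a (25.9) lay far below the other 3 (49.4 to 53.9), and without it the step from 1 to 3 d passed the test at 0.75 (adjusted p = 0.0312). Atp2a3, the pump of non-muscle cells, lay between 2.16 and 5.11 in all libraries and passed no contrast as deposited, with its largest difference from 0 d at -0.31 (adjusted p = 0.0592) at 7 d. That difference was past the test after median-ratio scaling (-0.63, adjusted p = 2.2e-05) and quantile normalization (-0.62, adjusted p = 6.98e-06).

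**Figure D2:**
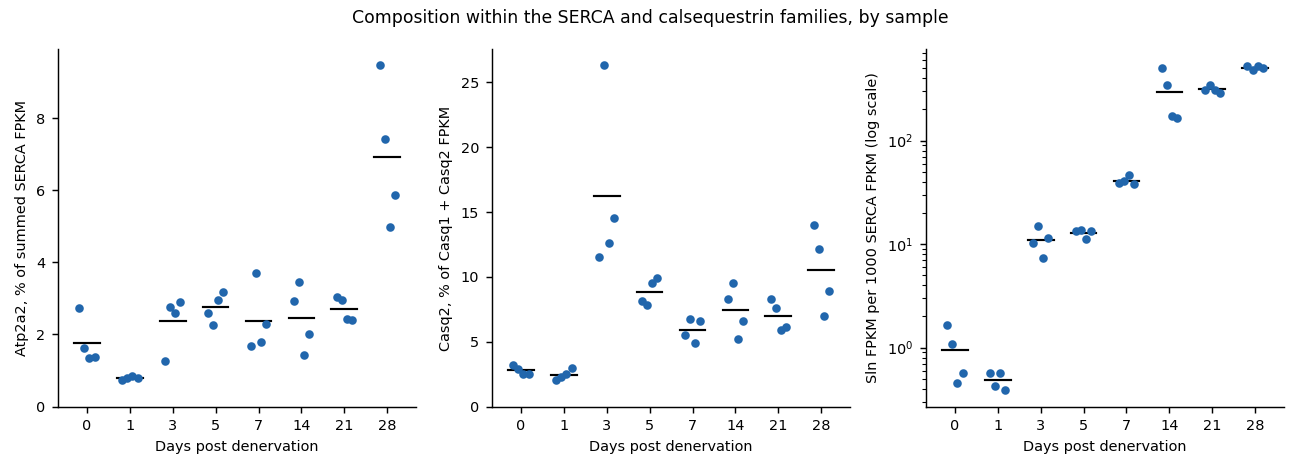
Family composition in each of the 32 samples by days post denervation, with a bar at the mean of 4: Atp2a2 as a percentage of the summed FPKM of the 3 SERCA genes, Casq2 as a percentage of Casq1 + Casq2, and Sln FPKM per 1000 SERCA FPKM (log scale). The Atp2a2 share is highest at 28 d (4.98% to 9.48%), the Casq2 share at 3 d, and Sln per SERCA reaches 479 to 529 at 28 d.

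Ratios within a library do not depend on the scaling between libraries by a single factor. Atp2a1 made up 98.1% ± 0.7 (SD, n = 4) of the summed SERCA FPKM at 0 d, 99.1% ± 0.03 at 1 d and 92.9% ± 2.0 at 28 d. The share of Atp2a2 was 1.77% ± 0.66 at 0 d, 0.79% ± 0.04 at 1 d, between 2.37% and 2.75% as group means from 3 to 21 d, and 6.94% ± 1.97 at 28 d. Quantile normalization put the Atp2a2 share at 2.53% for 0 d and at 1.79% to 2.03% on days 3 to 7, which turned the direction there, and at 6.94% on day 28. All deposited 28 d shares (4.98% to 9.48%) lay above all 0 d shares (1.35% to 2.73%). The summed SERCA FPKM was 3823 ± 447 at 0 d, 1908 ± 106 at 3 d and 2324 ± 174 at 28 d. Per 1000 SERCA FPKM, Sln went from 0.94 ± 0.54 at 0 d and 0.49 ± 0.09 at 1 d to 11.01 ± 3.19 on day 3 and 40.8 ± 3.7 on day 7, and the means of days 14, 21 and 28 were 297 ± 162, 313 ± 21.9 and 507 ± 23.5. Pln per 1000 SERCA FPKM stayed at or below 0.32 in all libraries.

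Casq1, the fast-fibre calcium store, had the deepest fall of the tested members. Its FPKM was 727, 685, 650 and 685 at 0 d, and 403, 397, 314 and 283 at 1 d. At 3 d it reached 57.8, 66.4, 97.1 and 101, which was 11.7% of the 0 d mean, and the groups of 0, 1 and 3 d did not overlap. The log2 fold change was -0.99 at 1 d (standard error 0.14, adjusted p = 2.48e-06) and -3.11 at 3 d (adjusted p = 1.125e-16). From 3 to 5 d it rose by 1.92 (standard error 0.14, adjusted p = 7.47e-11) to an FPKM of 288 to 315. It was still called lower at 28 d, at 409, 405, 507 and 422 (log2 fold change -0.66, adjusted p = 0.000293), with library c above the others, and was called lower at 21 d (-0.64). Both of these calls fell under 1.5-fold with TPM (-0.49 at 28 d and -0.50 at 21 d) and with quantile normalization (-0.54 and -0.49). Exons of Casq1 (chromosome 1, 172209894 to 172219868, - strand) overlap Gm17224 on the opposite strand over 156 bases.

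Casq2, the slow-fibre and cardiac form, fell early and rose late. The 0 d libraries read 24.3, 20.6, 16.9 and 17.5, and the 1 d libraries 8.54, 9.17, 8.14 and 8.79, all below 0 d (log2 fold change -1.10, standard error 0.22, adjusted p = 0.000204). At 28 d it stood at 66.5, 55.8, 38.1 and 41.3, all above 0 d (1.28, standard error 0.22, adjusted p = 1.39e-05), and at 21 d it was called higher at 27.4 to 40.9 (0.70, adjusted p = 0.00974). The 21 d call did not hold after median-ratio scaling (0.40, adjusted p = 0.119) or quantile normalization (0.46, adjusted p = 0.0753). At 3 d, where Casq2 was not called as deposited, both scalings called it lower (-0.68 in each, adjusted p = 0.00655 and 0.00665). The rise from 1 to 3 d (0.68, adjusted p = 0.0159) was lost without library b (0.46, adjusted p = 0.109) or library d (0.60, adjusted p = 0.0558) of 3 d, and in a fit of those 2 groups alone (adjusted p = 0.0972). From 3 to 5 d Casq2 rose by 0.95 (standard error 0.22, adjusted p = 0.00142). As a share of Casq1 + Casq2, it made up 2.80% ± 0.35 (SD, n = 4) at 0 d, 2.47% ± 0.41 at 1 d, 16.2% ± 6.8 on day 3, 8.86% ± 1.02 on day 5 and 10.51% ± 3.14 on day 28. The 3 d share reached 26.3% in library b and lay between 11.5% and 14.6% in the other libraries.

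Pvalb was the most abundant member at 0 d and fell at 3 d. Its FPKM was 7513, 6740, 6302 and 7040 at 0 d, 5582, 5671, 4659 and 4151 at 1 d and 1819, 1051, 1803 and 1885 at 3 d, and these groups did not overlap. The 1 d difference of -0.47 (adjusted p = 0.0180) was under 1.5-fold as deposited and -0.68 after median-ratio scaling, and the 3 d fall was -2.11 (standard error 0.15, adjusted p = 1.9e-12). It rose by 0.89 from 3 to 5 d (adjusted p = 5.33e-05). Pvalb was called lower at 5 d (-1.22), 7 d (-0.81) and 28 d (-0.72, adjusted p = 0.000223), and not at 14 d (-0.54) or 21 d (-0.57) as deposited. Both of these differences passed after median-ratio scaling (-0.94 and -0.88), without mitochondrial genes (-0.64 and -0.63) and without library 3 of 0 d (-0.59 and -0.61), and that of 21 d also without library a of 21 d (-0.62). With quantile normalization the 5, 7 and 28 d calls did not hold (-0.28, -0.21 and -0.33), nor did that of 28 d with TPM (-0.55). At 28 d the libraries read 3707, 3817, 4850 and 4425, all below 0 d. The ratio of Pvalb to Atp2a1 was 1.87 ± 0.32 (SD, n = 4) at 0 d, 0.88 ± 0.20 at 3 d and 1.96 ± 0.31 at 28 d.

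Hrc, the histidine-rich calcium-binding protein of the SR lumen, was lower than 0 d at all 7 later time points. The 0 d libraries stood at 292, 291, 327 and 313, the 3 d libraries at 70.5, 70.4, 63.3 and 66.3 and the 28 d libraries at 158, 150, 178 and 156. All libraries from 1 d on lay below all 0 d libraries, with log2 fold changes of -0.74 at 1 d (standard error 0.07, adjusted p = 5.48e-10), -2.16 at 3 d (adjusted p = 1.97e-20) and -0.93 at 28 d (adjusted p = 1.82e-12). Srl (sarcalumenin, an SR glycoprotein that binds calcium and steadies SERCA) had 248, 263, 271 and 282 at 0 d, 117, 141, 132 and 143 at 3 d and 177, 173, 190 and 183 at 28 d. As deposited it passed 1.5-fold only at 3 d (-0.996, standard error 0.07, adjusted p = 1.1e-12). At the other time points its differences of -0.31 to -0.55 had adjusted p-values of 0.000528 or less, and after median-ratio scaling all 6 were past 1.5-fold, at -0.72, -0.79, -0.70, -0.89, -0.68 and -0.93 on days 1, 5, 7, 14, 21 and 28. With quantile normalization those of 14 and 28 d were (-0.61 and -0.70). Its rise from 3 to 5 d (0.61, adjusted p = 1.55e-07) was under 1.5-fold after median-ratio scaling (0.48), without mitochondrial genes (0.55) and without library a of 3 d (0.55).

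**Figure D3:**
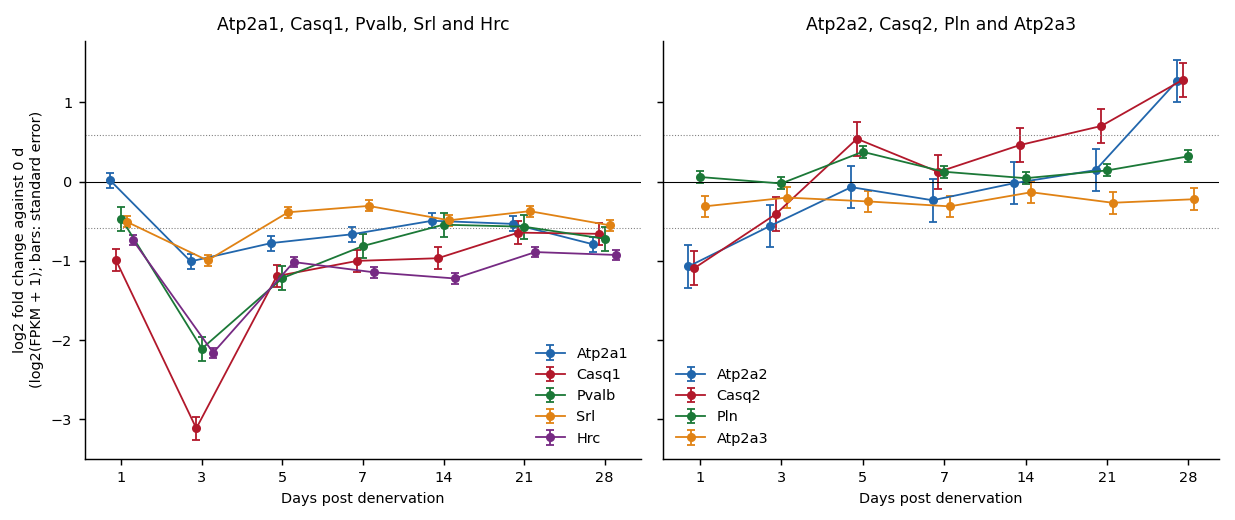
Log2 fold changes against 0 d on the log2(FPKM + 1) scale by days post denervation for the 9 members other than Sln, with standard errors of the limma fit as bars and 1.5-fold marked by dotted lines. Casq1, Pvalb and Hrc reach their lowest point at 3 d (-3.11, -2.11 and -2.16), and Atp2a2 and Casq2 go from -1.07 and -1.10 at 1 d to 1.27 and 1.28 at 28 d.

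Of the 9 members other than Sln, all of which passed the filter on low values, 4 were called lower at 1 d (Atp2a2, Casq1, Casq2 and Hrc), where 2.49% of all 22071 genes tested were called lower. At 3 d 5 were lower (Atp2a1, Casq1, Pvalb, Srl and Hrc; 6.03% of all genes). At 5 and 7 d it was Atp2a1, Casq1, Pvalb and Hrc (3.86% and 4.10% of all genes), at 14 and 21 d Casq1 and Hrc (3.83% and 3.93%), and at 28 d again Atp2a1, Casq1, Pvalb and Hrc (4.10%). Higher calls came late, with 1 member at 21 d (Casq2) and 2 at 28 d (Atp2a2 and Casq2), against 11.8% and 14.2% of all genes. No member was called higher at 1, 3, 5, 7 or 14 d, where 6.34%, 13.2%, 14.9%, 15.4% and 14.6% of all genes were. The 0 d libraries are shared by all these comparisons. On the log2(FPKM + 1) scale genes of very low value cannot fall 1.5-fold, and the shares called lower include such genes. Of the 22071 genes tested, 11943 averaged an FPKM of 1 or more. Between neighbouring time points, 5 members changed from 1 to 3 d (10.6% of all genes), with Atp2a1, Casq1, Pvalb and Hrc lower and Casq2 higher. With quantile normalization the Atp2a1 step was -0.48, under 1.5-fold, and that of Srl, -0.49 as deposited, was -0.78. From 3 to 5 d 5 members changed (5.76%), and Casq1, Casq2, Pvalb, Srl and Hrc all rose. Pln, at 0.40 for this step and under 1.5-fold, also passed with a pseudocount of 0.1 (1.21, adjusted p = 0.000955) and with TPM (0.76, adjusted p = 0.000363). None of the 9 was called in the later steps as deposited, where 0.657% (5 to 7 d), 0.634% (7 to 14 d), 0.453% (14 to 21 d) and 0.199% (21 to 28 d) of all genes were called.

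Promoter windows are shown for 4 reticulum and buffer genes that shared the rise from 3 to 5 d, as RefSeq gives them for GRCm38.p6 (250 bases before to 50 after each gene start). Capitals mark matches to CANNTG, the E-box read by muscle and other helix-loop-helix factors, a motif that is the same on both strands.
Casq1 promoter (chr1:172219846-172220145, - strand): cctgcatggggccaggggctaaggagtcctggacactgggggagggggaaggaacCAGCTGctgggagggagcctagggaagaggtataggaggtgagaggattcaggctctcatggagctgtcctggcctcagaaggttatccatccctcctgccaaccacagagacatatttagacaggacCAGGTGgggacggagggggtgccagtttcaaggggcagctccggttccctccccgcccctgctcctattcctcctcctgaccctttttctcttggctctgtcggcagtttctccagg
Casq2 promoter (chr3:102086165-102086464, + strand): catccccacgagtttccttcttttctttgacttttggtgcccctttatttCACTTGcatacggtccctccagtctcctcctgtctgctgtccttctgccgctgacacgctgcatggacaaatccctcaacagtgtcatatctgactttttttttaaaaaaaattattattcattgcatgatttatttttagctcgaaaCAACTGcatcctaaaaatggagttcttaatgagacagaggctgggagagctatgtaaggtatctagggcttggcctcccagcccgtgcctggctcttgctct
Hrc promoter (chr7:45335019-45335318, + strand): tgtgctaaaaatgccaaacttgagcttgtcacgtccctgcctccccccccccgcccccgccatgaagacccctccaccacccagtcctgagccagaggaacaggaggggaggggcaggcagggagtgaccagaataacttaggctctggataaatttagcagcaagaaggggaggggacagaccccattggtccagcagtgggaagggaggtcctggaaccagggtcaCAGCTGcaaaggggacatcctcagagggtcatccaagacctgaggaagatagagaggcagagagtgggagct
Pvalb promoter (chr15:78206351-78206650, - strand): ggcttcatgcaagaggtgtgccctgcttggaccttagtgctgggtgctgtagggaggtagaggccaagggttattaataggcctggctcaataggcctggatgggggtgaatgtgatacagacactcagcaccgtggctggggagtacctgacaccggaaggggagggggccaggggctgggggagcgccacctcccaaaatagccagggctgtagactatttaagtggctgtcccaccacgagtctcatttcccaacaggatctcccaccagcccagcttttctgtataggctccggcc
The windows of Casq1 and Casq2 hold 2 matches each, that of Hrc holds 1 and this window of Pvalb holds 0, while a second start of Pvalb has 2. Of all 32851 windows, 72.3% hold at least 1 match, with a median of 1. Sln, Atp2a2 and Srl have no entry in the set of windows used here.

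The slow-fibre genes, like Atp2a2 and Casq2, were lower at 1 d and higher at 28 d. The 7 slow genes Myh7, Myl2, Myl3, Tnni1, Tnnc1, Tnnt1 and Myh7b, which encode the slow contractile proteins, summed to an FPKM of 383 to 1114 at 0 d, 149 to 224 at 1 d, 72.5 to 192 at 3 d and 1191 to 2107 at 28 d. All 7 were called lower at 1 d, beside 2.49% of all genes (median log2 fold change -1.85, against 0.03 over all genes tested), and 6 at 3 d (6.03%). At 28 d 5 were called higher, beside 14.2% of all genes (median 1.62, against 0.14), and 4 after median-ratio scaling (median 1.25). Their median was -0.25 at 5 d, where Casq2 was at 0.54, and -0.48 and -0.47 at 14 and 21 d, where Casq2 was at 0.46 and 0.70, and the difference between the list and Casq2 was not tested. At 21 d 2 of the 7 were called lower and 1 higher (3.93% and 11.8% of all genes), or 3 and 0 after this scaling (7.28% and 6.4%). In 5 of 8 time points the library with the highest slow-fibre sum was also the highest for Atp2a2, and in 5 of 8 the lowest was the lowest, while for Casq2 it was 5 and 4. At 0 d, library 1 had the highest slow-fibre sum (1114), Atp2a2 (96.9) and Casq2 (24.3). The cardiac genes Myh6, Nppa, Tnni3 and Nkx2-5 summed to 0.563 to 0.735 at 0 d and 0.586 to 1.15 at 28 d, with Nkx2-5 at 0 in all 0 d libraries. How far the share of slow fibres in each piece of muscle enters the values of Atp2a2 and Casq2 was not tested.

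**Figure D4:**
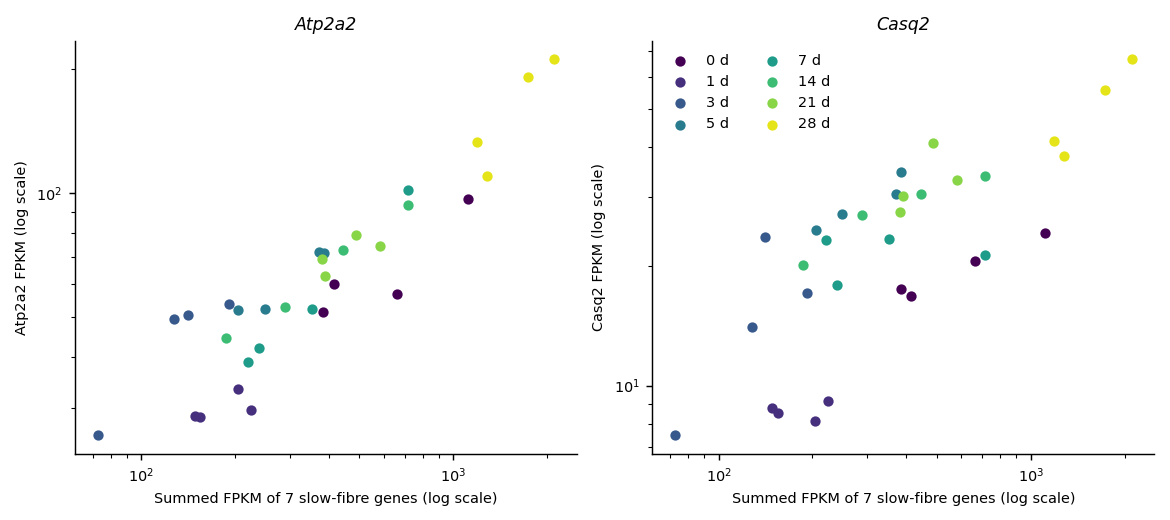
Atp2a2 and Casq2 FPKM against the summed FPKM of 7 slow-fibre genes in each of the 32 samples, coloured by day, with log scales on all axes. The 28 d samples lie at the top right of both panels (slow-fibre sum 1191 to 2107), and 1 sample of 3 d at the bottom left (sum 72.5, Atp2a2 25.9).

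Among the 9 fast-fibre genes, 6 were called lower at 3 d, where 6.03% of all genes were (median log2 fold change -0.94, against 0.06 over all genes tested), beside the falls of Atp2a1, Casq1 and Pvalb. Tnnc2, counted among the 9 as not called, had a mean FPKM of only 0.83 at 0 d, against 4647 for Tnni2 and 9749 for Tnnt3. Myh4, the myosin of the fastest fibres, fell from 5531 ± 1043 (SD, n = 4) at 0 d to 2301 ± 409 at 3 d and 1636 ± 259 at 7 d. Myh2 fell to 74.2 ± 37.5 at 3 d from 440 ± 106 and was at 564 ± 34.7 at 5 d. By 28 d 4 of the 9 were lower and 2 were higher (4.10% and 14.2% of all genes), or 5 and 0 after median-ratio scaling. The higher genes were Myh1, a fast myosin (500 ± 150 at 0 d, 918 ± 187 at 28 d, log2 fold change 0.90, adjusted p = 1.95e-05, or 0.52 after this scaling), and Actn3 (0.65, or 0.27 after this scaling). Myh1 had been lower at 3 d (-1.83) and 5 d (-0.95). Actn3, named as an exception, was higher from 7 d on as deposited, at 1.075 on day 14 (0.68 after this scaling). Genes of the macrophage list and of the satellite cell and myoblast list were also called higher at 3 d, where 13.2% of all genes were. The 6 macrophage genes summed to 25.3 to 33.2 at 0 d and 154 to 246 at 3 d, with 5 of 6 called higher, and the 5 satellite cell and myoblast genes to 9.39 to 14.2 and 219 to 308, with 3 of 5 called higher. Most of the latter sum was Myog, a myogenic differentiation factor (1.97 ± 0.46 at 0 d and 215 ± 34.5 at 3 d), and Myod1 (7.88 ± 1.45 and 60.3 ± 13.5), while the satellite cell marker Pax7 (-0.16, adjusted p = 0.148) and Myf5 (0.11, adjusted p = 0.464) were not called at 3 d. Their part in the 3 d values of the members was not tested.

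Genes whose level followed a member most closely were taken from 4709 genes averaging an FPKM of 10 or more in some group, by Pearson's r of log2(FPKM + 1) over the 32 libraries, which share their time points. For Sln these were Atp6v1e1 (a proton pump subunit, r = 0.986), Hes6 (0.982), Map1b (0.981), Ccdc141 (0.978) and Gm34006 (0.976). Hes6, a transcription factor, went from a mean FPKM of 3.92 at 0 d to 39.2 at 28 d, and Map1b, a microtubule-binding protein, from 1.61 to 23.4. Closest to Atp2a2 were the slow troponins Tnni1 (0.969), Tnnt1 (0.930) and Tnnc1 (0.921), then Myh7 (0.913) and Tpm3 (0.893). Closest to Pvalb were Casq1 (0.927), Rtn2 (0.925), D10Jhu81e (0.922), Ampd1 (0.915) and the fast light chain Myl1 (0.913). These coefficients are descriptions of profiles in which all points share the same 8 time points.

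Other regulators of SERCA were called in both directions. The counts of this and the following lists stand beside 13.2% of all genes tested called higher and 6.03% lower at 3 d, and 14.2% and 4.10% at 28 d. After median-ratio scaling these shares were 8.30% and 9.79% at 3 d, and 6.74% and 8.02% at 28 d. Of 9 measured genes, 3 were called lower at 3 d and at 28 d 3 were higher and 2 lower (median log2 fold change -0.47, against 0.14 over all genes), or 1 higher and 5 lower after median-ratio scaling (median -0.71). Mrln (myoregulin, a SERCA-inhibiting peptide of fast fibres) fell from 40.7 ± 4.9 (SD, n = 4) at 0 d to 15.6 ± 4.1 at 3 d (log2 fold change -1.36, adjusted p = 3.19e-10) and was at 42.9 ± 2.7 at 14 d. Camk2a, a calcium-activated kinase subunit, fell from 58.7 ± 6.5 to 7.64 ± 0.79 at 28 d (-2.79, adjusted p = 5.54e-21), whereas Camk2d rose from 2.77 ± 0.30 to 8.99 ± 0.23 (1.41, adjusted p = 3.45e-16). Ppp1r1a, a phosphatase inhibitor, was higher at 1 d (0.79) and lower from 5 d on (-0.94 at 28 d). The other higher genes at 28 d, named after their values were seen, were Camk2b (0.65) and Arln (0.68), both under 1.5-fold after median-ratio scaling (0.30 and 0.32), and Strit1, which encodes the SERCA-activating peptide DWORF, was lower at 3 d (-1.20, from a mean FPKM of 1.61 to 0.124).

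The release side of the SR was also called in both directions, mostly lower after median-ratio scaling. Of 16 genes of the calcium release complex and triad, 7 were called lower and 3 higher at 3 d (median -0.40, against 0.06), and 3 lower and 4 higher at 28 d (median -0.03, against 0.14). After this scaling 9 were lower and 2 higher at 3 d (median -0.67), and 6 lower and 1 higher at 28 d (median -0.31), where Cacng1 was the one still called higher (0.79). Jph2, a junctophilin that ties the SR to the T-tubule, fell from 134 ± 13.7 (SD, n = 4) to 33.3 ± 6.6 at 3 d (log2 fold change -1.99, adjusted p = 9.78e-15) and stayed lower at 28 d (-1.49). Trdn (triadin, which anchors calsequestrin to the release channel) was lower from 3 to 14 d, at -1.23 at 3 d. Cacng1, a subunit of the voltage sensor, rose from 170 ± 23.8 to 790 ± 86.7 at 5 d (2.21, adjusted p = 3.5e-14), and Tmem38b, an SR counter-ion channel, from 19.1 ± 0.9 to 76.6 ± 13.2 at 3 d (1.93, adjusted p = 4.93e-17).

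Several luminal calcium-binding proteins of the general endoplasmic reticulum rose at the time when Casq1 and Hrc fell. At 3 d 3 of 8 were called higher (Hspa5, Hsp90b1 and Calr), at 28 d 5 of 8 were, and none was lower at any time point (median 0.26 at 3 d and 0.65 at 28 d). After median-ratio scaling 3 were higher at 3 d and 1 at 28 d (median 0.00 and 0.31), and none was lower. Hspa5, the chaperone BiP, went from 48.9 ± 2.5 (SD, n = 4) to 174 ± 8.5 at 3 d (log2 fold change 1.81, adjusted p = 1.28e-16), Hsp90b1 from 18.9 ± 1.5 to 47.8 ± 4.4 (1.29), and Calr, calreticulin, from 51.6 ± 3.7 to 109 ± 15.7 (1.05). After this scaling the 28 d differences of Hsp90b1 and Calr (0.77 and 0.72 as deposited) were 0.41 and 0.35, under 1.5-fold. Rcn3, a reticulocalbin, was called higher at 5 d alone (0.87, adjusted p = 0.0319, or 0.50 after scaling).

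In the cytosol, 7 of 11 listed calcium binders passed the filter. Calm2, a calmodulin gene, was lower at all later time points (194 ± 16.4 at 0 d, 91.2 ± 3.4 at 1 d, log2 fold change -1.08, adjusted p = 1.25e-08). At 3 d Calm3 (-0.95) and S100a1 (-0.90), a calcium sensor that binds the release channel and SERCA, were also lower. At the plasma membrane 3 of 11 tested genes were lower at 3 d and 2 were higher and 1 lower at 28 d (median -0.18 and -0.12). The 28 d counts of this list lie near the shares of all genes, 14.2% higher and 4.10% lower. After median-ratio scaling 4 were lower at 3 d, and 1 was higher and 4 lower at 28 d (median -0.31 and -0.25). Slc8a3, a sodium-calcium exchanger, fell from 9.41 ± 1.23 to 1.70 ± 0.30 at 3 d (-1.95, adjusted p = 3.47e-17), Orai1, the store-operated channel, fell from 14.6 ± 2.0 to 6.90 ± 0.75 at 1 d (-0.98), and at 28 d Orai2 (0.79) and the SR calcium sensor Stim2 (0.70, or 0.36 and under 1.5-fold after median-ratio scaling) were higher.

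Of 9 genes of mitochondrial calcium uptake, none was called at 1 or 3 d, and 5 were higher at 5, 7 and 28 d (14.9%, 15.4% and 14.2% of all genes; median 0.63, 0.73 and 0.60). After median-ratio scaling 0, 2 and 3 were higher (6.59%, 7.01% and 6.74% of all genes, median 0.30, 0.41 and 0.29). At 14 and 21 d 4 and 3 were higher as deposited (14.6% and 11.8% of all genes), and 2 and 3 after this scaling (6.6% and 6.4%). Under this scaling 1 was lower at 3, 5, 14, 21 and 28 d (7.28% to 9.79% of all genes). Micu2, a gatekeeper of the uniporter, went from 19.1 ± 1.9 (SD, n = 4) at 0 d to 42.0 ± 1.9 at 28 d (log2 fold change 1.10, adjusted p = 2.01e-15) and Slc8b1, the mitochondrial sodium-calcium exchanger, from 3.71 ± 0.54 to 8.74 ± 0.60 (1.05). Mcub, an inhibitory subunit, was higher at 7 d (1.03, adjusted p = 0.00194). Of the Golgi pumps and exchangers 2 of 3 were tested, and Tmem165 was higher from 3 d on as deposited (0.85 at 28 d), and under 1.5-fold at each of these days after median-ratio scaling (0.31 to 0.54).

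**Figure D5:**
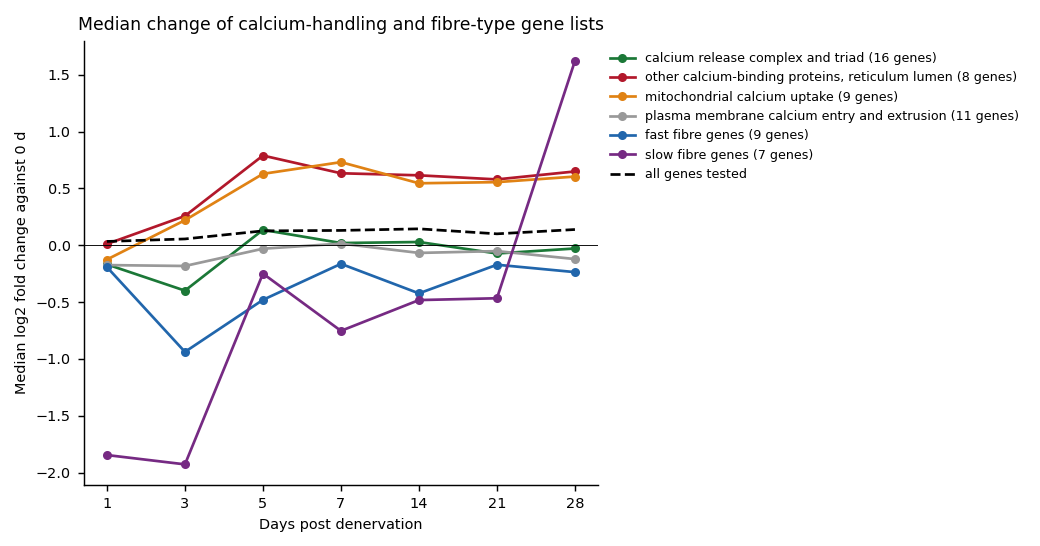
Median log2 fold change against 0 d of 6 gene lists by days post denervation, with the median of all 22071 genes tested as a dashed line. The slow-fibre median goes from -1.85 at 1 d to 1.62 at 28 d, the fast-fibre median is lowest at 3 d (-0.94), and the medians of the reticulum lumen and of mitochondrial calcium uptake lie above all genes from 3 d on as deposited, which at 3 d did not hold for mitochondrial uptake after median-ratio scaling (-0.03, against -0.01).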

How the data were processed

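Total RNA of GAS muscle was sequenced as 150-bp paired-end reads. The submitters' processing notes name CASAVA, HISAT2 2.1.0, DESeq2 and GRCm38; the counter, annotation and strand setting are not given in the sources used here. The authors deposited FPKM per gene and sample. Columns name a time point, or C for 0 d, and were used as 4 replicates of it.

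Symbols and merged exon lengths came from GENCODE M21 (33356 of 33397 genes matched), and fragments were recovered from FPKM and exon length (whole within 0.02). log2(FPKM + 1) was fitted with limma 3.58.1 in R 4.3.3 over all 32 samples with a variance trend, for the 22071 genes reaching FPKM 0.1 in 4 or more samples. Benjamini-Hochberg adjusted p under 0.05 with at least 1.5-fold was a call. Fold changes on this scale understate low genes. The step was tested on simulated data. Python 3.11.15, numpy 2.4.6, pandas 2.3.3 and matplotlib 3.10.9 served the other steps.

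The members and gene lists were chosen with earlier results of these data known. All 10 members are named; of each list up to 4 genes with the largest called changes are named, exceptions being marked, and for Sln, Pvalb and Atp2a2 the 5 genes most alike. Erln, of the SERCA regulators, had no match. The steps of Sln between late time points were planned as tests and are given as descriptions. Results for some genes that the naming rule covers are left out. Alternatives are given in the closing section, and depth sets the precision of low genes such as Pln, counting error only.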

Additional observations from a re-analysis of the deposited data

Results flagged for a closer look

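A sample lay far from the other 3 of its group in 3 of 80 groups of 4 (10 genes at 8 time points), where chance marks about 1 in 20 groups. Atp2a2 in sample a of 3 d had an FPKM of 25.86 against 49.37 to 53.89 in the others. Casq1 in sample c of 28 d had 506.7 against 405.0 to 421.7. Pvalb in sample b of 3 d had 1051 against 1803 to 1885. The gap to the nearest sample was 0.839, 0.836 and 0.902 of the range of the group. Sample a of 3 d also had the lowest slow-fibre sum of all 32 libraries (72.5) and a median-ratio factor of 0.851.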

How the results depend on the processing

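No paired analysis was possible because the value columns carry letters, or for 0 d a number after C, that are not tied to the replicate numbers of the labels. No member turned direction among its called differences. Median-ratio scaling gave 7 members lower at 7 d (Atp2a1, Atp2a2, Atp2a3, Casq1, Pvalb, Srl and Hrc) and 5 at 14 d and at 21 d (Atp2a1, Casq1, Pvalb, Srl and Hrc), where it called 8.13%, 7.56% and 7.28% of all genes lower against 4.10%, 3.83% and 3.93% as deposited. It gave 0 higher at 21 d and 1 changed from 21 to 28 d. Quantile normalization gave 2 lower at 5 d and 28 d, 1 at 21 d, 0 higher at 21 d and 1 changed from 21 to 28 d. Without mitochondrial genes 4 were lower at 14 and 21 d and 1 changed from 21 to 28 d. Rescaling to TPM gave 2 higher at 5 d and 1 at 14 d, with 1 lower at 21 d and 2 at 28 d. A pseudocount of 0.1 or 0.01 gave 1 higher at 5 d (Pln), as did limma-voom on the recovered fragments, chosen after seeing the data, which also gave 1 changed from 21 to 28 d. With no fold threshold 2 were higher at 5 d, 5 lower at 14 and 21 d and 1 changed from 14 to 21 d. A 2-fold threshold gave 2 lower at 1 and 7 d, 1 at 14 d, 0 at 21 and 28 d, 0 higher at 21 d and 2 changed from 3 to 5 d. Leaving out each replicate gave 0 to 1 higher at 5 and 14 d and 0 to 1 changed from 21 to 28 d. Casq2 was then higher at 5 d without library 1 of 0 d (0.64) or b of 5 d (0.61), and at 14 d without c of 14 d (0.60), and with all libraries at both days under TPM (0.74 and 0.68). Casq2 at 3 d was called lower without library b (-0.64) as well as after median-ratio scaling and quantile normalization (-0.68 in each). Srl at 28 d was called lower without library 1 of 0 d (-0.59), without mitochondrial genes (-0.60) and under both scalings (-0.93 and -0.70). Under a filter of FPKM 1 in 4 samples Pln was not tested. The filters on low values, the variance trend and a fit of the 2 groups alone left each count within 1.5 times its value. The cause of these shifts was not tested. Pln differed from 0 d at 5 and 28 d by adjusted p but not by 1.5-fold with a pseudocount of 1, and passed both with the smaller pseudocounts, TPM (0.78 and 0.67) and limma-voom (1.36 at 28 d).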

Other observations

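Markers of other cells differed in how they moved. The 4 Schwann cell genes summed to an FPKM of 114 to 241 at 0 d, 17.3 to 46.5 at 3 d and 31.5 to 46.7 at 28 d, with 2 of 4 called lower at 3 and 28 d. Sox10, a Schwann cell transcription factor, went the other way and was called higher at 5, 7, 14 and 28 d (log2 fold change 0.80, 0.90, 1.06 and 0.68, or 0.53, 0.64, 0.79 and 0.43 after median-ratio scaling, where only the 14 d difference passed the test). The 6 macrophage genes still summed to 67.8 to 77.3 at 28 d with 5 called higher, and the 5 satellite cell and myoblast genes to 219 to 232 with 4 called higher. Most of the latter sum was again Myog (119.9 ± 9.2) and Myod1 (94.6 ± 9.6), while the satellite cell marker Pax7 was not called at 28 d (log2 fold change 0.28). Of 4 endothelial genes 3 were lower at 3 d (sum 77.2 to 88.5 at 0 d and 45.3 to 63.0 at 3 d), and 1 at each later day, or 3 to 4 after median-ratio scaling. Of the fibroblast genes 2 of 4 were higher at 5 d, beside 14.9% of all genes, or 1 after this scaling. Of the smooth muscle genes 1 of 3 was lower at 7 and 14 d (4.10% and 3.83% of all genes) and none at the other days as deposited, whereas after median-ratio scaling 2 of 3 were lower at 1 and 3 d (5.05% and 9.79% of all genes under this scaling) and 3 of 3 from 5 d on (7.28% to 8.13%). Single calls in lists of this size cannot be read against the shares of all genes, as for 1 of 3 adipocyte genes lower at 3 d (6.03%) and 1 of 4 megakaryocyte and platelet genes higher at 1, 3 and 5 d (6.34%, 13.2% and 14.9%). Of the T and B cell genes none of 4 tested was called at any time point.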
